A study of Mus musculus with 8 samples.

Results

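The 10 genes described here encode proteins of the BCL2 family or its BH3-only branch, which decide whether a cell enters mitochondrial apoptosis. They are the anti-apoptotic *Bcl2*, *Bcl2l1* (BCL-XL) and *Mcl1*, the pore-forming effectors *Bax* and *Bak1*, and the BH3-only genes *Bmf*, *Bcl2l11* (BIM), *Bid*, *Bbc3* (PUMA) and *Pmaip1* (NOXA). They were taken by symbol from the 45583 symbols of the deposited count table, and all 10 were found. The libraries came from whole ovaries of juvenile female C57/Bl6 mice aged 3 weeks, 4 labelled WT (animals 1118, 1119, 1120 and 1121) and 4 labelled GOAT KO (1139, 1140, 1141 and 1146). GOAT, encoded by *Mboat4*, is the enzyme that acylates ghrelin, and the knockout is a whole-body deletion, with WT littermates from heterozygous parents as controls and no treatment in either group. Each library held the RNA of 1 mouse, read as single 50-base reads on an Illumina HiSeq. The comparison addressed whether loss of GOAT altered the transcripts that set the apoptotic threshold of the juvenile ovary.

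In the ovary most follicles are lost by atresia, in which granulosa cells, and in small follicles the oocyte itself, die by apoptosis. BAX and BAK1 open the outer mitochondrial membrane once they are freed from BCL2, BCL-XL or MCL1, and BH3-only proteins act by occupying the groove of those guardians or by activating the effectors directly. BH3-only genes are the points at which different stresses enter the pathway, *Bmf* with loss of anchorage, *Bcl2l11* with withdrawal of survival factors, *Bbc3* and *Pmaip1* with DNA damage through p53, and *Bid* with death receptors. Several of these proteins are set chiefly by phosphorylation, cleavage or turnover, which transcript counts do not measure.

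Counts on genes summed to between 16147216 and 19481798 per library, and values below are in CPM, a gene's counts relative to all counts on genes of the library after TMM scaling. *Mboat4*, the deleted gene, had 1, 1, 1 and 3 counts in the libraries labelled WT and 5, 7, 7 and 8 in those labelled GOAT KO. This order goes against the labels, but the counts are few and the reads were not placed within the deleted part of the gene, so they do not check the labels. Directions below are between libraries as labelled. The study set aside 1 library of each group that stood apart on its scaling plot, without naming them. Which they were is not given by the labels, and WT 1120 and GOAT KO 1139 were taken as those libraries from an earlier look at these data. All 8 libraries were used first, and comparisons were also made on the other 6. On the plot made here GOAT KO 1139 lay at 1.21 on the first axis and the other 7 libraries, WT 1120 included, between -0.47 and 0.17. On the second axis WT 1118 was farthest out, at 0.76, and WT 1120, at -0.43, lay beside GOAT KO 1141 and 1146, so this plot does not set WT 1120 apart. In GOAT KO 1139 the summed CPM of 5 adipocyte genes was 452, against 13.4 to 30.1 in the other libraries. In whole-ovary RNA, fewer cells of a type and less RNA per cell cannot be told apart.

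Short stretches of the transcripts show which forms of *Bcl2l1* and *Bax* the splice junction reads came from. Both junctions lie in the part of the coding sequence that encodes the BH2 region, and both upstream exons end in the same letters, ggctgg. Each line below joins 15 bases of the upstream exon, in lower case, to 15 bases of the downstream exon, in capitals, from the annotated mouse transcripts (GENCODE M21, GRCm38, minus strand).
Bcl2l1-201, exon 2 to exon 3: gagaacggcggctggGACACTTTTGTGGAT
Bax-201, exon 5 to exon 6: gaccagggtggctggGAAGGCCTCCTCTCC
Bax-205, exon 5 to exon 6: gaccagggtggctggGCCTCCTCTCCTACT
The *Bcl2l1* junction joins chromosome 2 positions 152829427 and 152782282, and belongs to the long, anti-apoptotic form. The *Bax* junctions leave the same exon end at chromosome 7 position 45463399 and enter exon 6 at 45461966 or, 4 bases further in, at 45461962. A step of 4 bases is not a whole number of codons.

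Among the guardians, *Mcl1*, whose product is short-lived and holds BAK1 and BIM, had the most transcript. Its level was 183, 187, 207 and 178 CPM in the WT libraries and 201, 192, 171 and 200 CPM in the GOAT KO libraries. The lowest and highest libraries, GOAT KO 1141 and WT 1120, sat on opposite sides and the groups overlapped throughout. The means were 189 ± 12.8 and 191 ± 14.3 CPM (SD, n = 4 each), a log2 fold change of GOAT KO over WT of 0.016 with a 95% interval of -0.14 to 0.17. The exact two-sided permutation p was 0.886, where 4 against 4 libraries can reach 0.0286.

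*Bcl2*, the founding member of the family, was at 23.3, 22.2, 23.7 and 26.2 CPM in WT and 26.9, 24.3, 21.3 and 29.9 CPM in GOAT KO ovaries. GOAT KO libraries held both the lowest and the highest value. The log2 fold change was 0.10 (95% interval -0.13 to 0.33, exact permutation p = 0.429), and 0.072 in the 6 libraries. *Bcl2* lies on the minus strand of chromosome 1 (106538178 to 106714274, GRCm38), over the antisense gene *D630008O14Rik*. Use of the strand in counting is not given in the sources used here, so reads of these 2 genes may be mixed. *Gm37053* and the microRNA gene *Mir3473f* overlap *Bcl2* on its own strand, so their reads may not have been told apart whatever the strand setting.

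*Bcl2l1* varied most of the 9 members that passed the filter on low counts. Its level was 51.0, 52.1, 88.8 and 55.1 CPM in WT and 67.5, 46.4, 50.5 and 53.9 CPM in GOAT KO libraries. WT 1120 was far above every other library, GOAT KO 1139 came next, and the remaining 6 lay between 46.4 and 55.1 CPM. With all 8 libraries the means were 61.8 ± 18.1 and 54.6 ± 9.13 CPM and the log2 fold change was -0.18 (95% interval -0.57 to 0.21, exact permutation p = 0.543). Without WT 1120 alone the value was 0.045, without GOAT KO 1139 alone it was -0.30, and without both it was -0.069, with 52.7 ± 2.08 against 50.3 ± 3.75 CPM (n = 3 each). The sign of the *Bcl2l1* difference with 8 libraries turned without WT 1120 alone, and its 95% interval in the 6 libraries ran from -0.23 to 0.094.

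For both effectors the spread was wider among the WT libraries than among the GOAT KO libraries. *Bax*, whose product moves from the cytosol into the mitochondrial membrane, was at 49.9, 58.1, 65.8 and 57.6 CPM in WT and 54.6, 52.8, 54.7 and 57.4 CPM in GOAT KO ovaries. The 4 GOAT KO values fell inside the WT range. The log2 fold change was -0.076 (95% interval -0.26 to 0.10, exact permutation p = 0.457). *Bax* (chromosome 7, 45461697 to 45466898, minus strand) overlaps the protein-coding gene *Gm45808* on the same strand, so reads of the 2 genes may not have been told apart in its count, its level per length or its ratios.

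*Bak1*, whose product sits in the mitochondrial membrane already, was at 52.7, 47.5, 57.1 and 45.7 CPM in WT and 49.8, 48.0, 48.5 and 48.5 CPM in GOAT KO libraries. Here too the GOAT KO values lay within the WT range, with an SD of 0.774 CPM against 5.18 CPM in WT. The log2 fold change was -0.060 (95% interval -0.23 to 0.11, exact permutation p = 0.571). The gene (chromosome 17, 27019810 to 27029009, minus strand) overlaps *Ggnbp1* on the opposite strand, which could add reads to its count.

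Among the BH3-only genes, *Bmf*, whose product is held at the cytoskeleton until it is released, was at 38.3, 34.9, 27.9 and 33.3 CPM in WT and 27.2, 42.2, 29.5 and 33.1 CPM in GOAT KO libraries. WT 1120 and GOAT KO 1139, the highest for *Bcl2l1*, were the lowest for *Bmf*, and the highest was GOAT KO 1140. The log2 fold change was -0.029 (95% interval -0.33 to 0.27, exact permutation p = 0.83).

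*Bcl2l11*, whose product binds every guardian, was at 53.1, 49.5, 58.1 and 44.0 CPM in WT and 55.7, 49.0, 44.3 and 52.997 CPM in GOAT KO ovaries. Its lowest and highest values were both in the WT group. The log2 fold change was -0.019 (95% interval -0.23 to 0.20, exact permutation p = 0.857).

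*Bid*, which links death receptors to the mitochondria once caspase-8 has cut its product, was at 23.2, 26.3, 29.0 and 22.7 CPM in WT and 26.7, 23.6, 21.4 and 23.0 CPM in GOAT KO libraries. WT 1120 was again the highest and GOAT KO 1141 the lowest. The log2 fold change was -0.095 (95% interval -0.32 to 0.13, exact permutation p = 0.457). *Bid* (chromosome 6, 120891930 to 120916853, minus strand) overlaps *Bcl2l13* on the other strand, so the same limit on strand holds for it. It also overlaps *Gm44260* on its own strand, whose reads may not have been told apart from those of *Bid*.

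*Bbc3* and *Pmaip1* were the scarcest members. *Bbc3* was at 2.54, 2.94, 2.74 and 2.67 CPM in WT and 2.87, 2.99, 2.25 and 2.73 CPM in GOAT KO libraries, resting on 41 to 53 counts each. The groups overlapped, and the log2 fold change was -0.011 (95% interval -0.35 to 0.32, exact permutation p = 0.886). *Pmaip1* had 2, 9, 8 and 12 counts in WT and 4, 4, 9 and 7 in GOAT KO libraries, too few to pass the filter on low counts. Of its 55 counts 24, or 43.6%, were in GOAT KO libraries (exact binomial 95% interval 30.3 to 57.7%, counting error only), which held 49.7% of all counts on genes. Fitted without the filter, its log2 fold change was -0.35 ± 0.46 (SE), and the exact permutation p was 0.8. At this depth a difference within the binomial interval could not be seen, and variation among animals, which it leaves out, makes the limit wider.

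**Figure D1:**
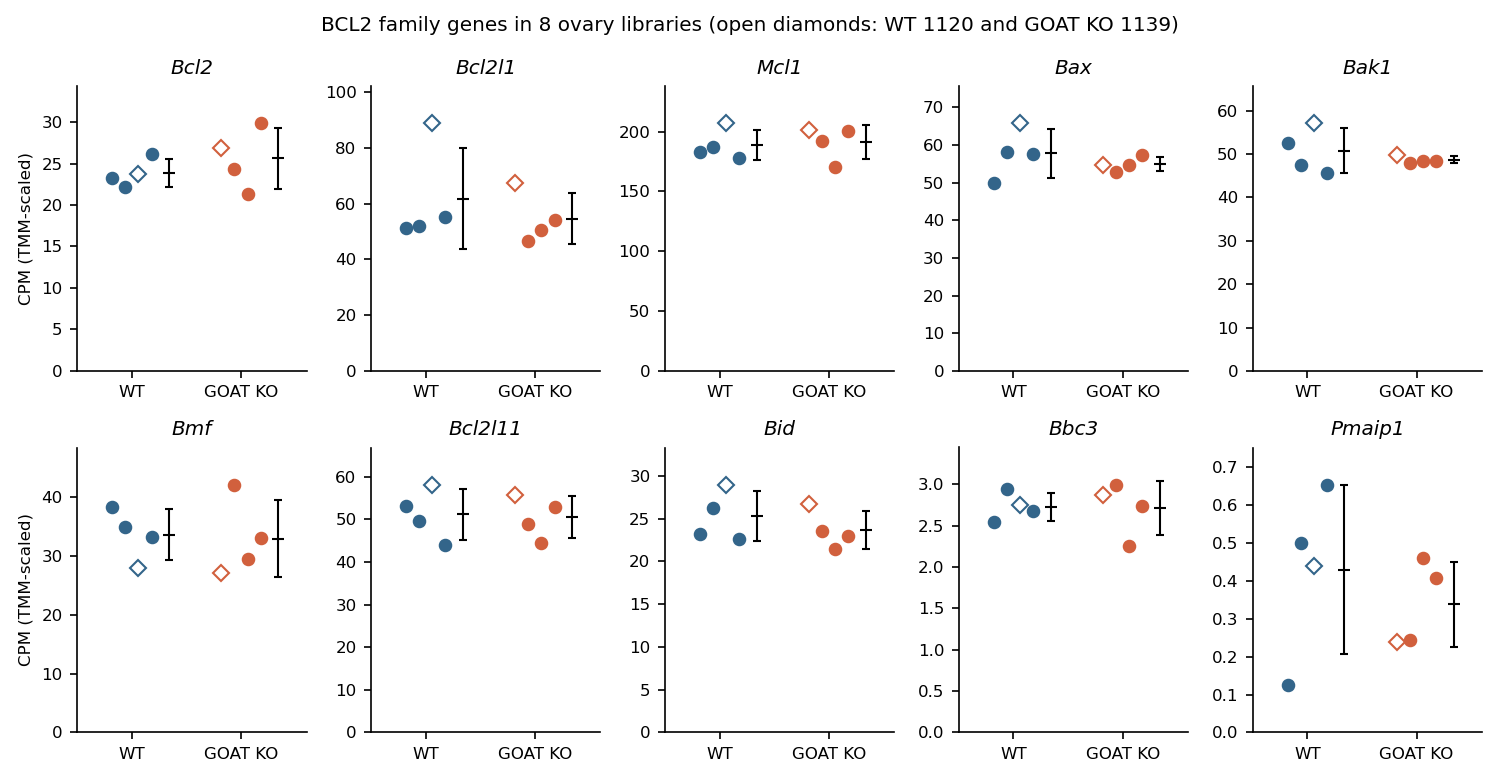
CPM (vertical axes from 0, each gene on its own scale) of the 10 genes in the 4 WT and 4 GOAT KO libraries, 1 point per library, with the mean and SD of each group as black bars and WT 1120 and GOAT KO 1139 as open diamonds. The groups overlap in every panel, and in the *Bcl2l1* panel the diamonds, at 88.8 and 67.5 CPM, lie above all filled points.

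Of the 10 members, 9 passed the filter on low counts and were tested in the fit of all 16601 genes with edgeR's quasi-likelihood test. None combined an unadjusted p under 0.05 with a log2 fold change beyond 0.5 in either direction, a rule met by 1.67% of all tested genes. At p under 0.05 alone the count was also 0 of 9, against 4.62% of tested genes, and after Benjamini-Hochberg adjustment it was 0 of 9, against 0.0241%. The lowest adjusted p of a member was 0.983. DESeq2 and limma-voom also placed no member at an unadjusted p under 0.05. With 9 genes such shares leave less than 1 gene to be called at the background rate, so the counts alone say little, and the intervals carry the result. With 8 libraries the 95% intervals of 8 of 9 members lay within 0.5 of zero on the log2 scale, and that of *Bcl2l1* did not. Over the 9 members the lowest bound was -0.57, of *Bcl2l1*, and the highest 0.33, of *Bcl2*. In the 6 libraries all 9 lay within it, with outer bounds of -0.46 and 0.38. The libraries left out there were the highest for *Bcl2l1*, so its narrower interval follows from leaving them out.

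The groups overlapped in CPM for all 9, where 2.92% of tested genes did not overlap. Of the 9, 7 had a log2 fold change below 0 and 2, *Bcl2* and *Mcl1*, above it, against 50.1% of all tested genes below 0. The median over the members was -0.029 and over all tested genes -0.00035. The median absolute log2 fold change was 0.060 for the members and 0.077 for all tested genes. No member moved by more than 0.2 on the log2 scale, as 17.6% of tested genes did. In the 6 libraries these counts were again 0 at every threshold, where 2.39% of 16641 genes met the first rule, 9.46% had p under 0.05, 0.12% passed adjustment and 23.5% moved by more than 0.2. The groups of 3 overlapped for all 9 members, and for 15.7% of tested genes they did not. Below 0 lay 7 of 9 members again and 49.7% of tested genes. The lowest adjusted p of a member there was 0.777, and the median absolute log2 fold change was 0.036 for the members and 0.097 for all tested genes.

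**Figure D2:**
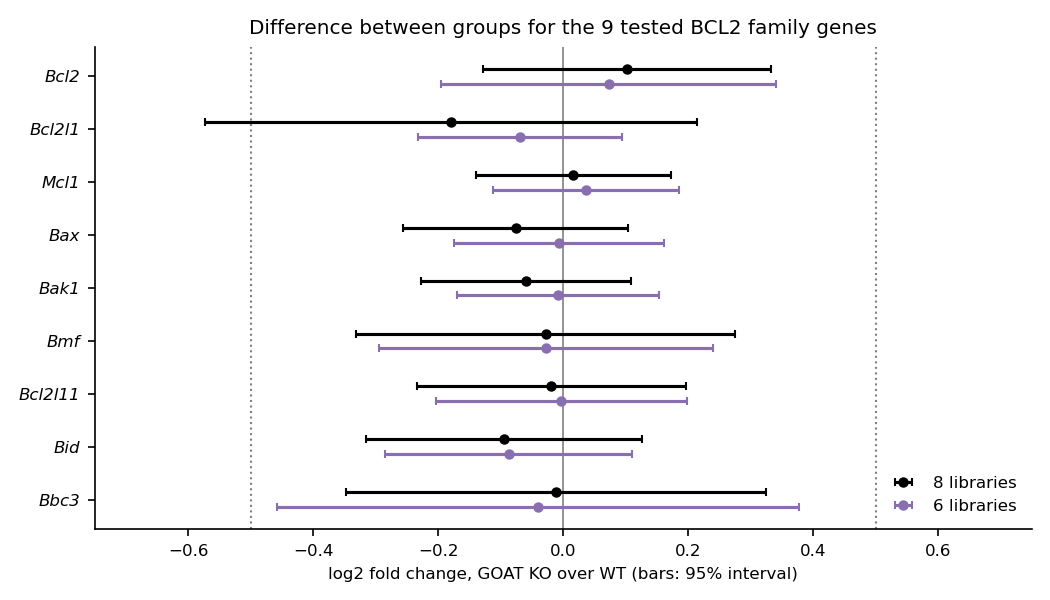
Log2 fold change of GOAT KO over WT (horizontal axis) with its 95% interval from the edgeR fit for the 9 tested genes, in black for 8 libraries and in purple for the 6 without WT 1120 and GOAT KO 1139, with dotted lines at -0.5 and 0.5. All 18 intervals cross 0, and only the 8-library interval of *Bcl2l1* passes a dotted line, at -0.57.

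To compare the genes with each other, CPM was divided by the length of each gene's merged exons (CPM per kb, mean ± SD over 8 libraries). *Mcl1* led at 55.6 ± 3.68, followed by the effectors *Bax* at 35.8 ± 2.99 and *Bak1* at 20.7 ± 1.497. *Bcl2l1* came next at 12.7 ± 3.01. Its range overlapped that of *Bak1*, although *Bak1* was higher in 8 of 8 libraries. *Bid* at 6.90 ± 0.721, *Bmf* at 6.34 ± 0.985 and *Bcl2l11* at 6.33 ± 0.633 CPM per kb formed a middle level whose ranges overlapped, *Bid* being above *Bmf* in 6 of 8 libraries and *Bmf* above *Bcl2l11* in 5 of 8. *Bcl2* followed at 2.70 ± 0.304, *Bbc3* at 1.28 ± 0.113 and *Pmaip1* at 0.140 ± 0.0625 CPM per kb. Apart from the overlaps named, each gene was above the next in all 8 libraries with no overlap of ranges. Merged exon lengths count every annotated exon, used or not, so a gene with a long, little-used exon is placed too low.

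**Figure D3:**
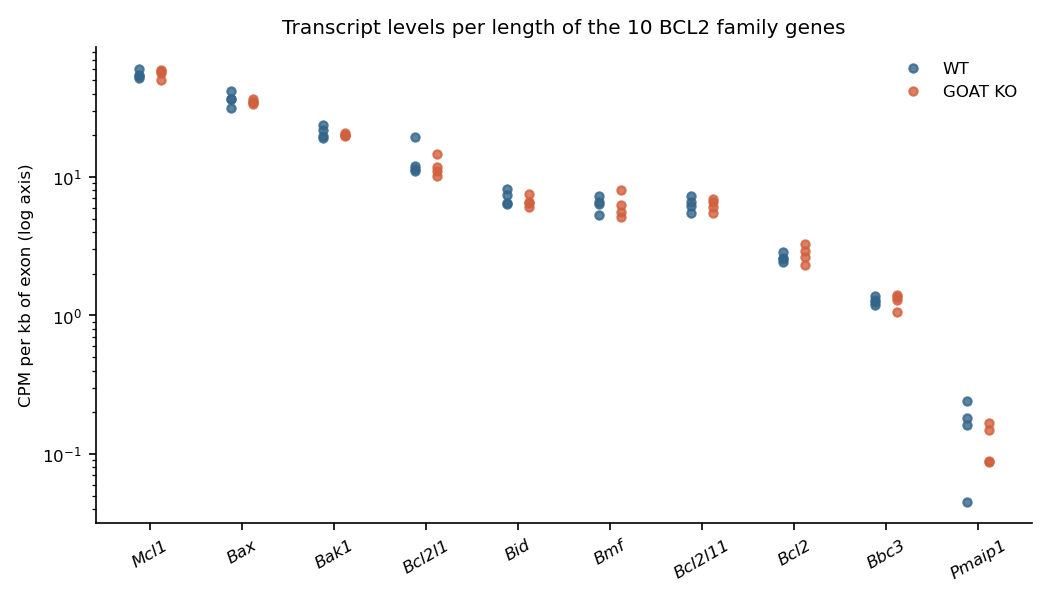
CPM per kb of merged exon (vertical log axis) for the 10 genes in order of their mean, 1 point per library, blue for WT and orange for GOAT KO. Levels fall from 55.6 for *Mcl1* to 0.140 for *Pmaip1*, and for each gene the WT and GOAT KO points overlap.

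The balance of effector to guardian was described by ratios of these levels, without a test. *Bax* over *Bcl2* was 14.1 ± 1.80 in WT and 12.6 ± 1.63 in GOAT KO libraries (SD, n = 4 each), with single libraries from 11.2 to 16.1. *Bax* over *Bcl2l1* was 2.82 ± 0.473 and 2.98 ± 0.425, lowest in WT 1120 at 2.16 and GOAT KO 1139 at 2.36. *Bmf* over *Bcl2l1* was 0.511 ± 0.166 and 0.548 ± 0.183, with 0.275 in WT 1120, 0.351 in GOAT KO 1139 and 0.511 to 0.793 in the other 6. *Bcl2l11* over *Mcl1* held within 0.105 to 0.123 in all libraries. For each ratio the groups overlapped, and those with *Bcl2l1* set WT 1120 and GOAT KO 1139 apart from the rest.

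The members differed in how much they varied among libraries. The SD of log2 CPM over 8 libraries put *Bcl2l1* at the 81.1 percentile of tested genes and *Bmf* at the 68.2 percentile. *Mcl1* at 24.0, *Bak1* at 26.3 and *Bax* at 35.0 were among the steadier genes, and the other members lay between 39.1 and 51.9. WT 1120 was the highest library for 6 of 9 members (*Bcl2l1*, *Mcl1*, *Bax*, *Bak1*, *Bcl2l11* and *Bid*), and it was the highest for 19.8% of all tested genes. GOAT KO 1141 was the lowest for 4 of 9 (*Bcl2*, *Mcl1*, *Bid* and *Bbc3*), against 10.8% of tested genes. WT 1120 and GOAT KO 1139 were the highest pair for *Bcl2l1*, *Mcl1*, *Bcl2l11* and *Bid*, as for 11.3% of tested genes, and the lowest pair for *Bmf*, as for 11% of them.

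*Cyp19a1*, the aromatase gene of granulosa cells in larger follicles, was highest in the libraries where *Bcl2l1* was highest and *Bmf* lowest. It was at 6.57, 5.06, 65.0 and 9.70 CPM in WT and 45.2, 6.84, 17.7 and 31.6 CPM in GOAT KO libraries. WT 1120 and GOAT KO 1139 led, and GOAT KO 1146 followed. As a description over 8 libraries of both groups, Pearson's r of log2 CPM with *Cyp19a1* was 0.80 for *Bcl2l1* and -0.82 for *Bmf*. Over the 6 other libraries it was 0.36 and -0.62, so the *Bcl2l1* relation rested on those 2 libraries. Other members had values of like size, with 0.61 for *Mcl1*, 0.57 for *Bcl2l11* and 0.56 for *Bax* over 8 libraries, and -0.63 for *Bid* and 0.56 for *Bcl2* over 6. The 10 granulosa markers summed to 5180 to 6288 CPM in WT and 5888 to 6618 CPM in GOAT KO libraries. WT 1120 was at 6288 CPM, the top of its group, and GOAT KO 1139 at 6344 CPM. The part of follicle composition in the spread of *Bcl2l1* and *Bmf* was not tested.

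**Figure D4:**
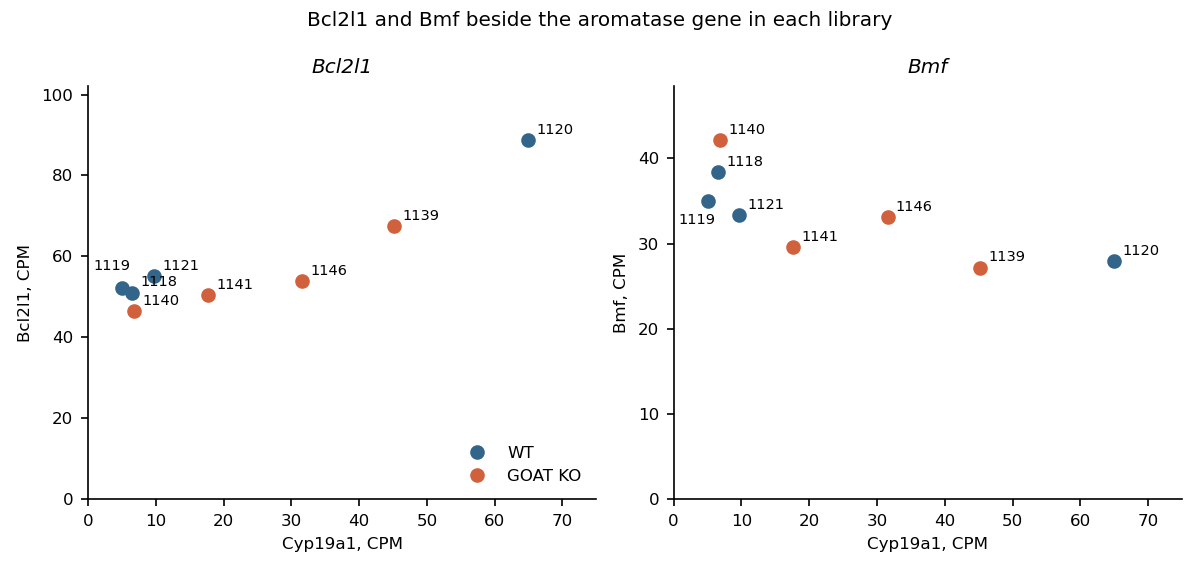
CPM of *Bcl2l1* (left) and *Bmf* (right) on vertical axes from 0 against CPM of *Cyp19a1*, 1 point per library with its animal number, blue for WT and orange for GOAT KO. WT 1120, at 65.0 CPM of *Cyp19a1*, and GOAT KO 1139, at 45.2, are the highest points on the left and the lowest on the right.

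Between members, *Bcl2l11* and *Mcl1*, a BH3-only gene and a guardian of its product, had the highest r over 8 libraries, at 0.89, and 0.77 over 6. Over the 6, *Bbc3* and *Bid* gave 0.78, against 0.58 over 8. *Bmf* and *Bcl2l1* ran in opposite directions, at -0.74 and -0.61. *Bcl2l1* and *Bid* gave 0.80 over 8 libraries but -0.03 over 6, and *Bax* and *Bak1* gave 0.34 and -0.82. These values have few points, share the scaling of each library, and are given without a test.

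Among the 16600 other tested genes, the 3 most like each member over 8 libraries were listed by r of log2 CPM. For *Bcl2l1* they were *Adam8* at 0.99, *Pdlim4* at 0.99 and *Lrrc59* at 0.98, which fell to 0.78, 0.78 and 0.65 in the 6 libraries, and 45 genes in all passed 0.95. For *Bmf* they were *Gm9800* at 0.98, *Tpd52l1* at 0.97 and *Tmem64* at 0.96, and these kept 0.95 to 0.96 in the 6 libraries. The closest gene was *Mapk6* for *Bcl2l11* (0.98), *Ssbp4* for *Bak1* (0.98), *Pcyt2* for *Bax* (0.97), *Dnaja1* for *Bid* (0.97), *Arl1* for *Bbc3* (0.95), *Gm12040* for *Bcl2* (0.94) and *Ppara* for *Mcl1* (0.94). A search through so many genes over 8 points returns high values in any case, so these are names and no more.

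Reads across splice junctions were listed for all 10 genes, and nearly all fell on annotated introns. Over the 8 libraries *Bax* had 3189 such reads, *Bak1* 1221, *Bid* 352, *Bcl2l1* 301, *Bcl2l11* 226, *Bmf* 140, *Mcl1* 49, *Bbc3* 21, *Bcl2* 2 and *Pmaip1* 1. The list is not complete for each library. The *Mcl1* intron had 0, 12, 0 and 16 reads in WT and 0, 0, 0 and 21 in GOAT KO libraries, although the *Mcl1* level was 171 to 207 CPM across them. A junction listed at 0 is therefore not evidence that it was unused.

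At *Bcl2l1*, the junction printed above, which makes the long form, had 22, 35, 54 and 40 reads in WT and 35, 25, 26 and 31 in GOAT KO libraries. It followed the gene's CPM in being highest in WT 1120. No junction from another donor, such as the one that makes the short, pro-apoptotic form, was listed at that acceptor beside its 268 reads.

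At *Bax*, the Bax-201 entry to exon 6 had 931 reads and the Bax-205 entry, 4 bases further in, had 56, or 5.67% of 987. By library the Bax-205 entry had 9 of 101, 0 of 110, 12 of 170 and 9 of 142 reads in WT and 0 of 96, 9 of 117, 9 of 122 and 8 of 129 in GOAT KO ovaries. One library of each group had none and the other 6 had 8 to 12. In those 6 the share lay between 6.20% and 8.91%, with both groups in this range. Counting the listed 0s as 0% gave 5.58% ± 3.87 in WT and 5.32% ± 3.60 in GOAT KO libraries (SD, n = 4 each), where the 0s set the spread. Since a listed 0 may be a gap in the list, no p is given for the difference. No other junction choice of a member reached the minimum of reads for a comparison.

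*Bcl2l11* is spliced into forms that differ in how strongly they kill. Removal of the intron of 168 bases inside the coding exon (chromosome 2, 128128757 to 128128924), which turns the extra-long form into the long form, had 8, 8, 0 and 2 reads in WT and 3, 0, 7 and 0 in GOAT KO libraries. The junction from 128128757 to 128147084, which makes the short form, had 2 reads, both in WT 1120. Reads of these forms were too few for a test.

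First exons were also separable at *Bcl2l11*. The junction from the upstream first exon, which starts at 128126038, had 34 reads over 8 libraries and that from the other, which starts at 128127575, had 14. The former had 8, 4, 6 and 6 reads in WT and 1, 3, 3 and 3 in GOAT KO libraries, and the latter 5, 2, 2 and 3 against 0, 2, 0 and 0. These junctions had 48 reads in all and together as few as 1 in a library, which is under the minimum for a test. A junction outside the annotation added 1 read at the same acceptor, in GOAT KO 1139.

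The sequences before the most used annotated starts of *Bcl2l11* and *Bcl2l1* are printed because the first gene ran with *Mcl1* and the second varied most between libraries among the 9 members that passed the filter. Both are the 250 bases before the start, 5′ to 3′ on the gene's strand, from RefSeq (GRCm38.p6), at chr2:128125788-128126037 on the plus strand and chr2:152830718-152830967 on the minus strand. Capitals mark matches to 5 motifs searched on both strands.
Bcl2l11: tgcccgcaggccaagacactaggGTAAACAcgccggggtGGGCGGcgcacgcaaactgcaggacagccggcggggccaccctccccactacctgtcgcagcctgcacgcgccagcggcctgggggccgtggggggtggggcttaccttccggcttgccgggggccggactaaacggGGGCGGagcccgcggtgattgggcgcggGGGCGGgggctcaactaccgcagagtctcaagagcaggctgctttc
Bcl2l1: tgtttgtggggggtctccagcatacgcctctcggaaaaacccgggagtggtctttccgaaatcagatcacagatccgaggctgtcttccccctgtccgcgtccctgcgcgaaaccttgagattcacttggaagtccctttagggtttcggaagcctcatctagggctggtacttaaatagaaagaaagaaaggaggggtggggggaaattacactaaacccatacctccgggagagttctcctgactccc
The *Bcl2l11* window is 72.0% G and C and holds 3 GC boxes (GGGCGG, in 32.7% of 32851 windows of this length) and 1 forkhead site (GTAAACA, in 3.17%), the motif of FOXO factors. The *Bcl2l1* window is 53.2% G and C and holds none of the 5. The other motifs were the E-box (CACGTG, 6.02% of windows), the cAMP response element (TGACGTCA, 1.55%) and the SF-1 site (CAAGGTCA, 1.33%). The window before the other *Bcl2l11* start, at 128127575, held 2 GC boxes. Windows of *Pmaip1* were not searched. Among windows of the other members searched, *Bcl2* held 7 GC boxes, *Bid* 3, *Bax* 2 and *Mcl1* 1, while those of *Bmf* and *Bak1* held none. The 3 windows of *Bbc3* held 5, 1 and 7 GC boxes, with a forkhead site in the second and an E-box in the third. The *Bax* window also held an E-box, and the window of another *Bcl2l1* start, with no first-exon junction read, held an SF-1 site. A match describes the letters alone.

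Around the members, 65 other apoptosis genes were grouped by role, and 57 were tested. At an unadjusted p under 0.05, 1 was higher and 2 were lower in GOAT KO libraries, 5.26% of those tested against 4.62% of all genes, and none passed adjustment. The median over the 57 was 0.011 on the log2 scale. In the 6 libraries 2 were higher and 4 lower, 10.5% against 9.46% of all genes.

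In the rest of the BCL2 family 9 of 15 genes were tested, with 1 called and a median log2 fold change of 0.11. The called gene was *Bok*, an effector related to *Bax* and *Bak1* that is abundant in reproductive tissue. It was at 57.9, 87.0, 80.1 and 70.5 CPM in WT and 93.3, 86.1, 94.96 and 78.8 CPM in GOAT KO libraries. The groups overlapped, with means of 73.9 ± 12.6 and 88.3 ± 7.40 CPM, and its log2 fold change was 0.26 ± 0.11 (SE, edgeR adjusted p = 0.983). The value ran from 0.16 to 0.34 as each library was left out in turn, with p under 0.05 in 3 of 8. In the 6 libraries it was 0.27, no longer with p under 0.05. The most abundant genes of the list were *Bcl2l13*, a mitochondrial relative, at 118 and 119 CPM in WT and GOAT KO libraries, and *Bnip3l*, a mitophagy receptor, at 96.7 and 107 CPM, neither of which passed the test.

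Of 14 apoptosome and caspase genes 1 was called, *Dffa*, which encodes the inhibitor of the caspase-activated DNase. It was at 20.9, 22.1, 25.9 and 23.5 CPM in WT and 19.8, 20.7, 20.6 and 20.1 CPM in GOAT KO libraries. The groups did not overlap, the lowest WT and highest GOAT KO libraries being next to each other. Its log2 fold change was -0.19 ± 0.081 (SE, edgeR adjusted p = 0.983), and -0.12 in the 6 libraries, no longer with p under 0.05. *Parp1*, a DNA repair enzyme cut by caspases, was at 323 and 336 CPM and *Diablo*, which relieves caspase inhibition, at 143 and 140 CPM.

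Of 8 caspase inhibitors 1 was called, *Birc6*, a giant ubiquitin ligase. It was at 372, 372, 307 and 347 CPM in WT and 311, 304, 315 and 303 CPM in GOAT KO libraries. All GOAT KO libraries were close together, and WT 1120 lay among them while the other 3 WT libraries were higher. Its log2 fold change was -0.18 ± 0.068 (SE, edgeR adjusted p = 0.983), and -0.24 in the 6 libraries (adjusted p = 0.280). *Xiap*, the direct caspase inhibitor, was at 131 and 135 CPM.

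None of 10 tested death receptor genes was called, and their median log2 fold change was 0.0083. *Tnfrsf1a*, a TNF receptor, was at 85.2 and 85.9 CPM, and *Cflar*, which blocks caspase-8, at 66.5 and 63.4 CPM. None of 16 upstream regulators was called either, with a median of -0.045 and 11 below 0. *Foxo1*, a transcription factor for *Bcl2l11* and *Bbc3* and abundant in granulosa cells, was at 1144 and 1172 CPM, and *Akt1*, the kinase that restrains it, at 270 and 261 CPM.

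**Figure D5:**
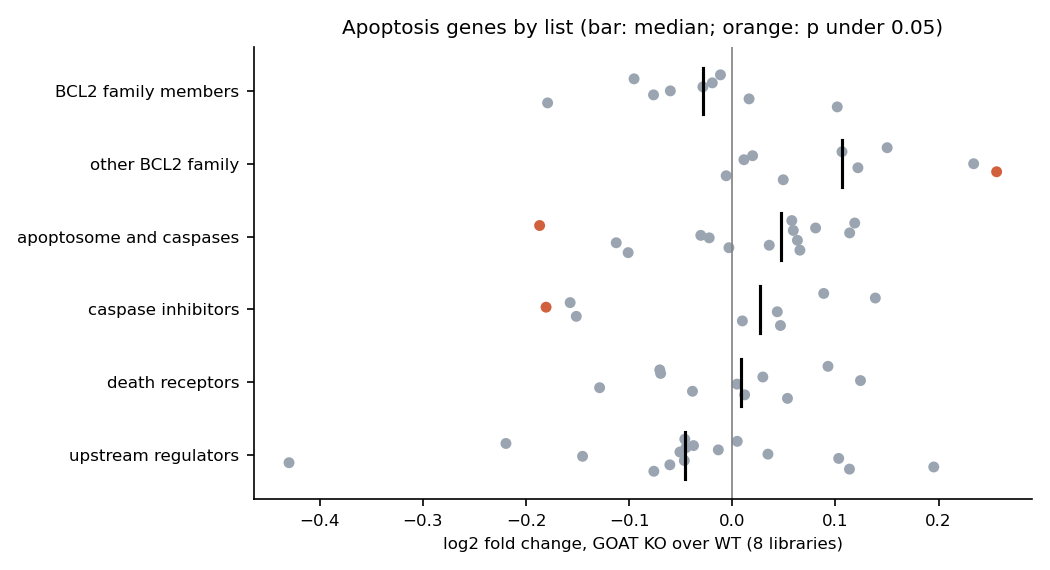
Log2 fold change of GOAT KO over WT with 8 libraries (horizontal axis) for the 9 tested members and the 57 tested genes of the 5 other lists, 1 point per gene, with list medians as black bars and genes at an unadjusted p under 0.05 in orange. The orange points are *Bok* at 0.26, *Dffa* at -0.19 and *Birc6* at -0.18, and the members cover -0.18 to 0.10.

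The cell type markers checked beside these lists were present as labelled. The 10 oocyte markers summed to 1059 to 1287 CPM in WT and 1085 to 1277 CPM in GOAT KO libraries. The 10 theca and interstitial markers summed to 4481 to 5442 and 5014 to 5981 CPM, the 8 leukocyte markers to 43.1 to 61.4 and 40.1 to 47.2 CPM. The 5 blood markers summed to 146 to 591 and 160 to 336 CPM and the 5 oviduct markers to 33.0 to 41.9 and 32.8 to 39.8 CPM. The 5 adipose markers summed to 13.4 to 27.4 CPM in WT and 18.2 to 452 CPM in GOAT KO libraries, where GOAT KO 1139 held the 452 and the other 3 were at most at 30.1 CPM and overlapped WT. No marker of any list was at 0 in all libraries. In the same fit 4.62% of all tested genes had an unadjusted p under 0.05. At that threshold 4 of 10 tested granulosa, 2 of 9 theca and interstitial and 1 of 10 oocyte markers were higher in GOAT KO libraries. Higher too were 4 of 4 tested adipose markers, whose sum stood out in GOAT KO 1139 alone. Lower were 2 of 7 leukocyte and 1 of 5 oviduct markers, and 0 of 5 blood markers passed. The part of these markers in the members' values was not tested.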

How the data were processed

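Whole-ovary RNA of 8 mice was sequenced as single 50-base reads, 1 library per mouse. The authors aligned cleaned reads to mm10 (GRCm38) with TopHat 2.0.14 and deposited counts per gene symbol without normalization, together with the counts of reads across splice junctions of each library. The percent of reads mapped, 85.92 to 87.02% of 26399384 to 31228745 reads, was deposited as well. Transcripts assembled with StringTie 1.0.4 were not used here. The counting tool and the use of the strand are not given in the sources used here.

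Genes were kept with filterByExpr (4 libraries above 0.566 CPM) and tested with the quasi-likelihood F-test of edgeR 4.0.16 after TMM scaling (R 4.3.3), GOAT KO against WT on all 8 libraries, with Benjamini-Hochberg adjustment over all tested genes. DESeq2 1.42.0, limma-voom (3.58.1), RLE factors, no filter, 6 libraries without WT 1120 and GOAT KO 1139, and leaving out each library in turn were alternatives. Single members were also compared by a two-sided exact permutation test of the difference of mean log2 CPM over libraries, with 0.01 CPM added. The labels give 1 animal per library, so n counts animals. Libraries of a group differed by 4.22 to 27.1 in chi-square per gene over 12 pairs, and none was a repeat deposit. The edgeR script was tested on simulated data.

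The filter left out *Pmaip1*. Exon lengths and introns came from GENCODE M21 (GRCm38), while the deposited counts used the release numbered Ensembl 81. Junctions needed 10 reads over 8 libraries, and a shared site 20 reads in each, before a test. Members and lists were chosen with earlier results of these data known. The rule for names took all members, list genes at p under 0.05, the 2 most abundant genes of each list, and the 3 genes most like each member. Intervals on counts cover counting error only.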

Additional observations from a re-analysis of the deposited data

Results flagged for a closer look

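In the WT group, 1 library lay far from the other 3 for *Bcl2l1*, with 88.8 CPM in WT 1120 against 51.0 to 55.1 CPM, a gap of 0.894 of the group's whole range. It was the only such value among 30 groups of 4 libraries examined. Chance alone marks about 1 group in 20, so 1 such value is no more than chance would give. The long-form junction of *Bcl2l1* was also highest in WT 1120, at 54 reads, but these come from the same library and are no separate evidence. *Cyp19a1* was highest there, at 65.0 CPM. The cause was not tested.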

How the results depend on the processing

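With RLE factors, DESeq2, limma-voom, 6 libraries, or any 1 library left out, 0 of 9 members had an unadjusted p under 0.05, and with no filter 0 of 10, *Pmaip1* included. All genes called by p and fold were 278, and 691 with no filter on low counts, where more low genes are tested. Leaving out 1 library in turn gave 231 to 437, the highest without WT 1120. The difference in the Bax-205 share, GOAT KO minus WT and with listed 0s counted as 0%, was -0.26 percentage points, 2.01 without WT 1120 and GOAT KO 1139, and -2.12 to 1.51 with 1 library left out, and gives no direction. Members whose sign turned with 1 library left out were *Bcl2l1* (-0.30 to 0.045), *Bmf* (-0.17 to 0.053), *Bcl2l11* (-0.088 to 0.044), *Bbc3* (-0.062 to 0.068) and *Mcl1* (-0.014 to 0.064). *Bcl2* stayed between 0.019 and 0.18, *Bax* between -0.14 and -0.013, *Bak1* between -0.11 and -0.0020, and *Bid* between -0.16 and -0.027. *Birc6* kept p under 0.05 in 4 of 8 such fits and *Dffa* in 2 of 8. No analysis matched by litter was possible because the labels do not give the litter of each animal, and the part of litter was not tested. Depth limits *Pmaip1* and most junctions.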

Other observations

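In the 6 libraries without WT 1120 and GOAT KO 1139, 6 genes of the other apoptosis lists had an unadjusted p under 0.05, and they are named here after their values were seen. *Cdkn1a*, a cell cycle inhibitor induced by p53, had a log2 fold change of -0.45, *Jun*, a stress-activated transcription factor, -0.48, and *Atm*, a DNA damage kinase, -0.25. *Birc6* was at -0.24, while *Bad*, a BH3-only gene restrained by AKT, and *Bnip3l* were each at 0.20. None passed adjustment with edgeR, the lowest adjusted p being 0.280. With all 8 libraries *Cdkn1a* was at -0.43, *Atm* at -0.15 and *Jun* at -0.22, and of the 6 genes *Birc6* alone had p under 0.05.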
